A study of Mus musculus with 6 samples.

Results

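Interferon-stimulated genes are genes whose transcription rises when a cell meets interferon, and 39 of them were followed here between radiated and non-radiated mouse femur. The members were taken by gene name from a table of 43346 genes. They are genes induced by type I or type II interferon, with chemokines left out. All 39 names were found, and all 39 passed the filter on low counts that left 18757 genes for testing.

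Interferons are secreted signals of antiviral and antitumour defence. Type I interferons bind the receptor made of Ifnar1 and Ifnar2, and type II interferon (Ifng) binds Ifngr1 and Ifngr2. Janus kinases on these receptors phosphorylate STAT proteins. After type I signals, a complex that holds Stat2 and Irf9 binds the interferon-stimulated response element. After type II signals, STAT dimers bind the gamma-activated site. Nucleic acid that reaches the cytosol, including the cell's own DNA after radiation damage, is a known trigger of interferon production, and interferon acts in marrow on blood stem cells and on the precursors of osteoclasts.

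The mice were of the C57BL/6 strain and 4 months old. The radiated group (n = 3) was the right femur, of which 5 mm at the distal metaphysis, the marrow-rich end of the shaft, had received 24 Gy at 6.6 Gy per minute in a single session. The non-radiated group (n = 3) was the left femur, which received no dose. Bones were collected on day 21, and the design asks what differs before the later bone loss. The control femur was thus also from a radiated animal, and what circulates in the blood reaches both femurs. The libraries were made from bone with its marrow after muscle was taken off, so a value is a mean over many cell types. In such bulk RNA, fewer cells of a type and less RNA per cell cannot be told apart. C57BL/6 mice carry a disrupted Mx1, so its RNA level says nothing of a working protein.

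Library totals were 34034251 to 48708383 gene counts. Non-radiated library 2 stood apart, with 32.9% of its counts in the row AY036118 against 0.321% to 5.61% in the other libraries. Radiated libraries 1 and 2 stood apart in skeletal muscle transcripts, at 0.214% and 0.694% of counts, against 0.0491% to 0.0682% in the other 4. The 39 genes held 0.142% to 0.229% of the counts of a library. The labels do not say that the 3 libraries of a group came from separate animals, so p-values measure the spread between these libraries. Levels are given in CPM, counts scaled to the size of their library with TMM, a trimmed mean that sets most genes level between libraries, and a log2 fold change is radiated over non-radiated.

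The sequence that interferon-activated factors read was searched for in the promoters. RefSeq promoter windows on GRCm38.p6, from 250 bases before to 50 bases after the transcription start, were at hand for 30 of the 39 genes. The core of the response element was searched as GAAANNGAA, which reads TTCNNTTTC on the other strand, and the gamma-activated site as TTCNNNGAA, which reads the same on both strands. Matches of the 2 motifs were counted separately and may overlap. GAAANNGAA was in 18 of the 30 windows (60%, 95% Wilson interval 42.3% to 75.4%), against 9.76% of 27025 genes with a window. A stricter form, GAAANNGAA followed directly by A, C and T, was in 9 of the 30 (30%) against 0.303% of all genes. TTCNNNGAA was in 10 of the 30 (33.3%) against 9.55% of all genes. A match is a description of letters, not a bound site.

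The stretches below are shown because they belong to the genes on which the results turn: Ifit3 and Gbp2, which rose, their neighbours Ifit1 and Gbp3, the high-level genes Isg15 and Rsad2, and Igtp, which had the lowest fold change. Each is written 5′ to 3′ on the gene's own strand and lies upstream of the RefSeq start. Capitals mark every match to GAAANNGAA in either reading, and in Igtp also the match to TTCNNNGAA.
Ifit3, chr19:34583362-34583447, plus strand: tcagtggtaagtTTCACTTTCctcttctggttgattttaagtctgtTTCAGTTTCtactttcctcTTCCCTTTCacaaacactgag
Ifit1, chr19:34640768-34640825, plus strand: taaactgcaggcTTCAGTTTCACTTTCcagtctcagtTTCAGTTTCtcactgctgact
Gbp2, chr3:142620593-142620625, plus strand: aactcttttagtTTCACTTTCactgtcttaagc
Gbp3, chr3:142559988-142560026, plus strand: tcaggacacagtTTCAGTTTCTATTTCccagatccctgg
Isg15, chr4:156200864-156200908, minus strand: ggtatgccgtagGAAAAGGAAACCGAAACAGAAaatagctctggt
Rsad2, chr12:26456551-26456583, minus strand: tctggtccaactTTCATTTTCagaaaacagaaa
Igtp, chr11:58199499-58199542, plus strand: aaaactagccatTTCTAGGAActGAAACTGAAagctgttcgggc
Ifit3, Ifit1 and Isg15 each hold 3 matches here, some of them overlapping, Gbp3 holds 2 and the other 3 genes hold 1. The number of matches to GAAANNGAA did not order the fold changes. Ifit3, with 3, had a log2 fold change of 1.02 and Isg15, also with 3, of 0.21. Of the stricter form, the window of Ifit3 held 1 match and that of Isg15 held 0. In Igtp the 2 motifs stand next to each other, starting at 45 and 34 bases before the start. Over the members with a window, the median log2 fold change was 0.17 for the 18 with GAAANNGAA and 0.13 for the 12 without it. Of the 9 with the stricter form, Ifit3 was at 1.02, Gbp2 at 0.78, Ifit1 at 0.55 and Oas1a at 0.47. Gbp5 was at 0.42, Gbp3 at 0.34, Ddx58 at 0.17, Irgm1 at 0.15 and Bst2 at -0.04. The other members with a window ran from -0.41 (Igtp) to 0.54 (Ifi44). Whether the fold change depends on either form was not tested. Windows were matched by gene name, so the Gbp5 window stands beside a row whose counts may belong to another gene.

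Most of the 39 genes lay slightly higher in radiated femur, and few passed the test. The log2 fold change was above 0 for 35 of 39 (89.7%), against 50.5% of all genes tested. By the quasi-likelihood test of edgeR, adjusted by Benjamini-Hochberg over all genes, 4 members rose at an adjusted p under 0.05 (10.3%), namely Ifit3, Gbp2, Parp14 and Zbp1. Over all genes tested 4.56% were called higher. No member was called lower, where 3.24% of all genes were, and 7.8% of all genes were called in either direction. At an unadjusted p under 0.05, 17 members were higher and 1 was lower, beside 12.2% and 9.34% of all genes. For 17 members all radiated values were above all non-radiated ones, and for 1, Igtp, all were below, beside 14.4% and 11.5% of all genes.

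The median log2 fold change of the 39 genes was 0.17, with a range from -0.41 to 1.02, and that of all genes tested was 0.00. Of the 35 members not called, 24 had a 95% interval whose upper bound lay below a 1.5-fold rise and 34 below a 2-fold rise. A larger rise thus lay outside those intervals, and 21 of the 35 intervals included no difference.

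**Figure D1:**
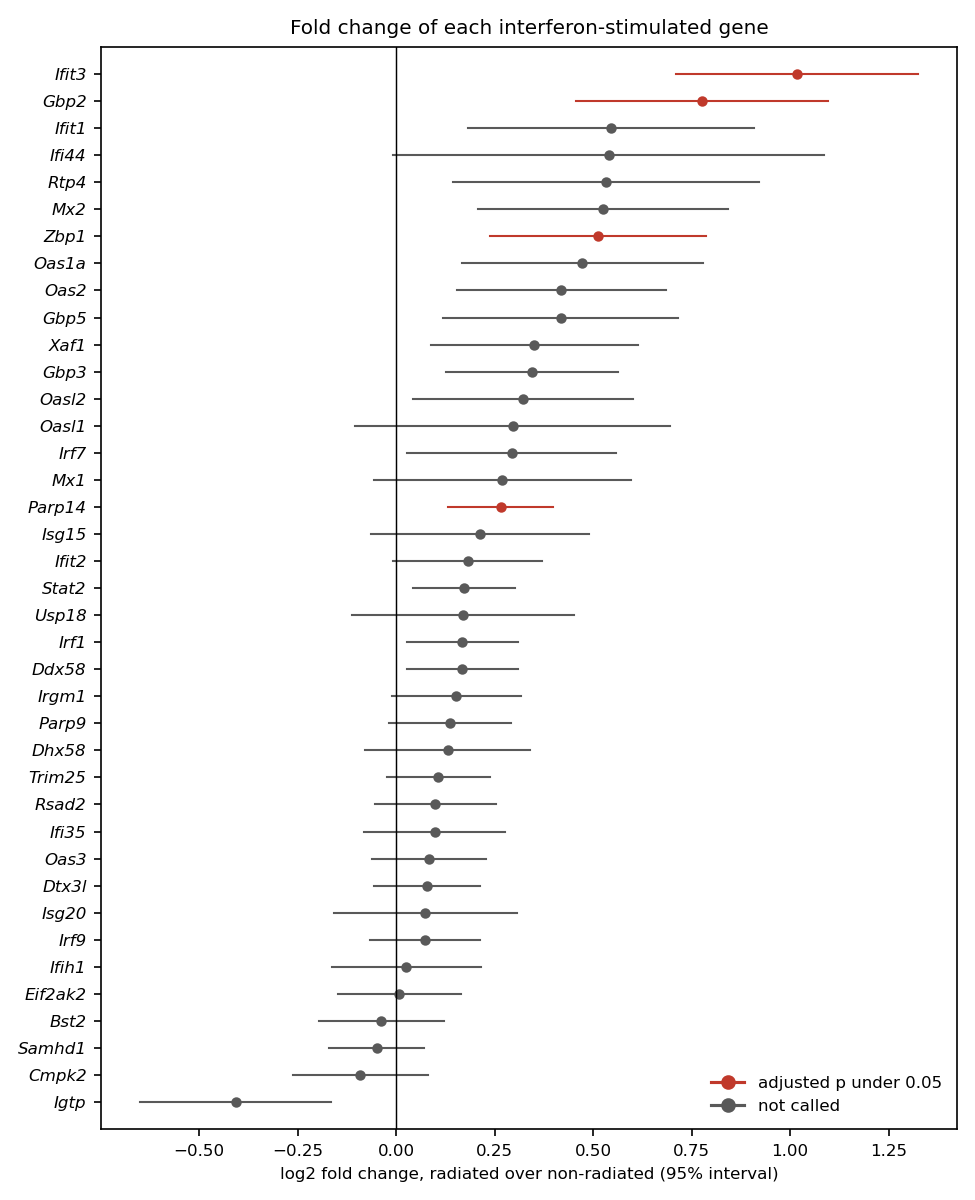
Log2 fold change of each interferon-stimulated gene, radiated over non-radiated, with its 95% interval from the edgeR fit on 3 libraries per group. Points to the right of the line are higher in radiated femur, red marks the 4 genes called at an adjusted p under 0.05, and Igtp is alone in lying wholly to the left.

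In their deviations from the group means, libraries with equal replicate numbers correlated more than the others (the check stands with the processing). Whether a number marks a mouse is not in the labels. A fit with that number as a block called more members. It called 8 higher, adding Ifit1, Oas2, Gbp3 and Xaf1 to the 4 called without it, and it called Igtp lower. Over all genes that fit called 5.51% higher. In the pair numbered 1, 35 of the 39 genes were higher in the radiated library, with a median difference of 0.25 on the log2 scale. In pair 2 the count was 33 and the median 0.16, and in pair 3 it was 30 and the median 0.17. Of all genes tested, 52.8%, 50.5% and 50.4% were higher in pairs 1, 2 and 3.

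The radiated libraries differed among themselves in these genes. Set against the mean of the non-radiated libraries, the median member lay at 0.28, 0.18 and 0.11 on the log2 scale in radiated libraries 1, 2 and 3, and at 0.05, 0.01 and -0.06 in non-radiated libraries 1, 2 and 3. Radiated library 1 was the highest of the 6 for 27 of 39 members (69.2%), against 18.3% of all genes tested. Non-radiated library 3 was the lowest for 20 members (51.3%), against 14% of all genes. Without radiated library 1, 2 members were called higher, beside 2.27% of all genes in that fit, and the median log2 fold change was 0.13. Without radiated library 3, 8 were called, beside 4.85% of all genes, and the median was 0.22.

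**Figure D2:**
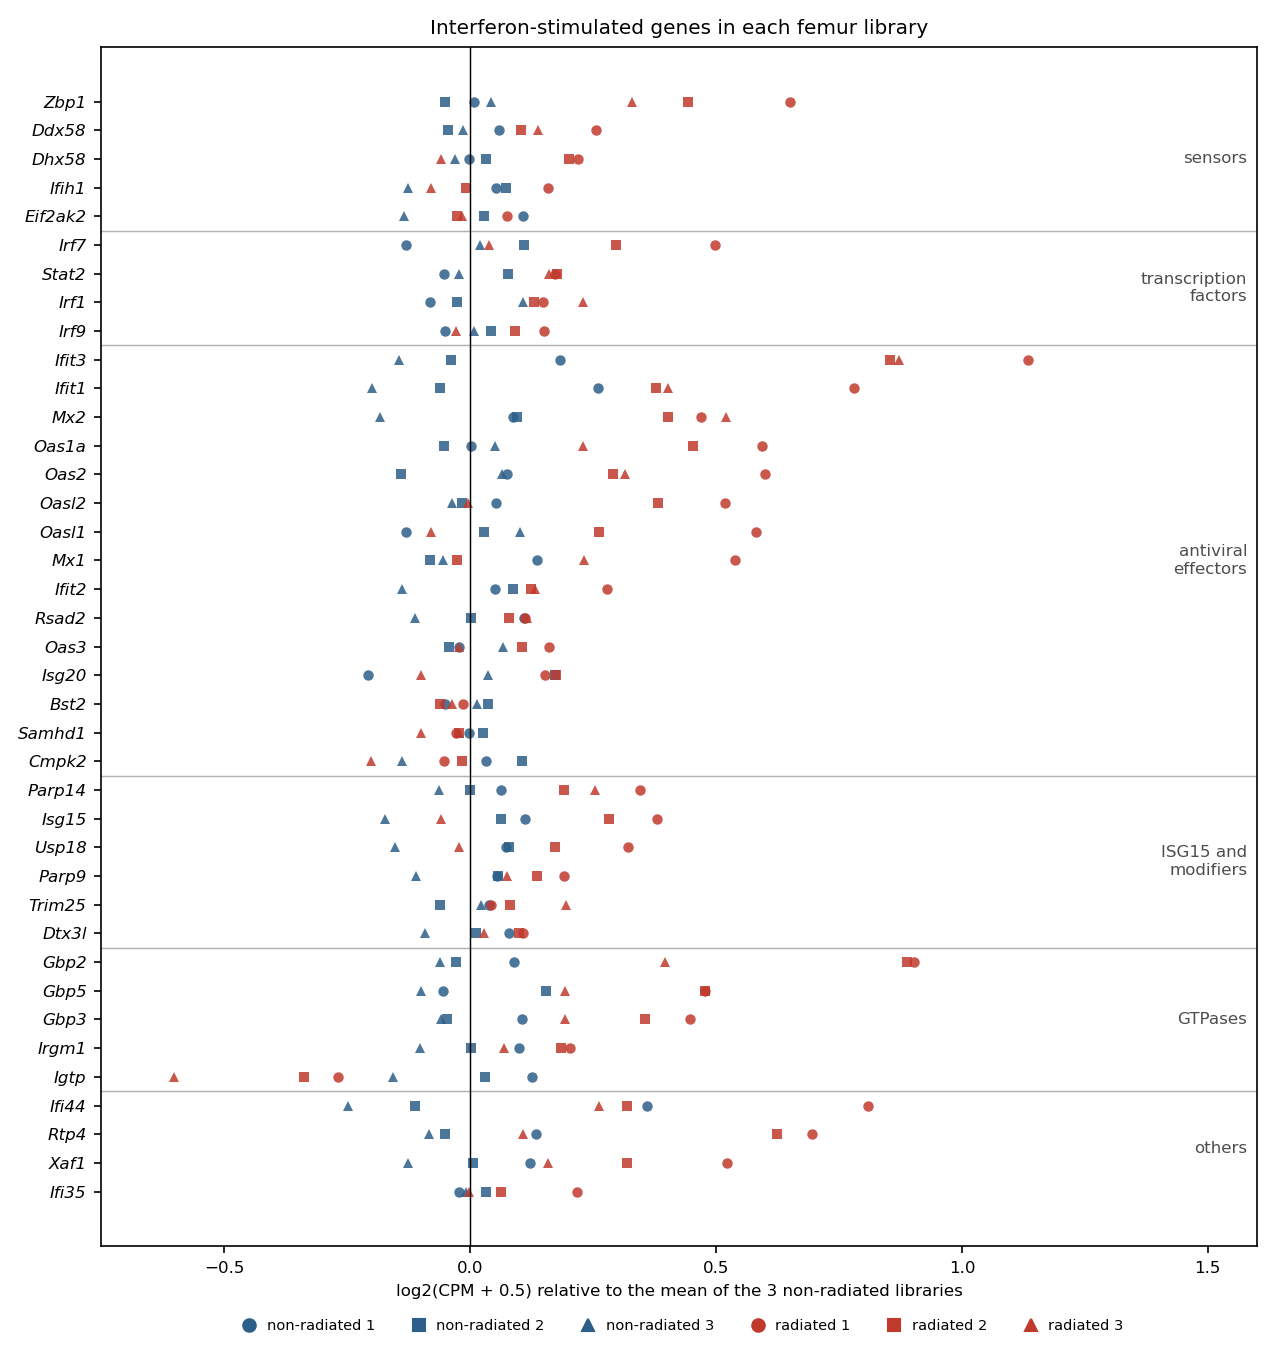
Level of each interferon-stimulated gene (rows) in each of the 6 libraries (points), as the log2 difference from its mean in the non-radiated libraries. Red points are radiated and blue points non-radiated libraries, and the marker shape gives the replicate number. Radiated library 1 is the highest for 27 of the 39 genes, and Igtp is lower in all 3 radiated libraries.

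The largest group is the antiviral effectors, with 15 members: the IFIT proteins, which bind foreign RNA and block its translation, the MX and OAS families, and enzymes that starve or trap viruses. Of these 1 rose, none fell at the threshold, and the median log2 fold change was 0.27. Ifit3 (ENSMUSG00000074896, chr19:34583531-34588731) was at 5.81, 4.91 and 4.53 CPM in the non-radiated libraries and at 11.7, 9.55 and 9.68 CPM in the radiated libraries. The lowest radiated value was above the highest non-radiated one. Its mean went from 5.09 ± 0.66 to 10.3 ± 1.21 CPM (SD, n = 3 each). This is a 2.03-fold rise, 1.02 on the log2 scale (SE 0.14), at an adjusted p of 0.00226 by edgeR. Ifit3 was the only member called under each of the 17 settings tried.

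Ifit3b, listed in the table as I830012O16Rik, is a near copy of Ifit3, with 97.8% identity over 1700 bases, so reads of the pair may be split or lost by the counting. It was at 1.69 ± 0.364 CPM in non-radiated and 3.01 ± 0.416 CPM in radiated femur (SD, n = 3 each), log2 fold change 0.83, edgeR adjusted p 0.0349. That call held in 11 of the 17 settings.

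The other IFIT genes lie on the same stretch of chromosome 19. Ifit1 was at 8.91, 7.03 and 6.35 CPM in non-radiated and 13, 9.72 and 9.88 CPM in radiated libraries, without overlap. Its log2 fold change of 0.55 (SE 0.16) had an edgeR adjusted p of 0.0756, and of 0.0135 with the replicate block. Ifit2 was at 24.9 ± 2.08 and 28.2 ± 1.76 CPM (SD, n = 3 each), a log2 fold change of 0.18 at an adjusted p of 0.254 by edgeR. The 3 IFIT members thus had fold changes of different size, with Ifit3 the largest; the differences between them were not tested.

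The OAS enzymes make short adenylate chains that switch on RNase L. Oas2 was at 10.01, 8.54 and 9.93 CPM in non-radiated and 14.6, 11.7 and 11.9 CPM in radiated libraries, without overlap. Its log2 fold change was 0.42, with an edgeR adjusted p of 0.0645 and of 0.0396 with the replicate block. Oas1a had a log2 fold change of 0.47 (adjusted p 0.0696) and shares 97.6% identity over 1861 bases with Oas1g, which is not a member and was called higher (1.06, adjusted p 0.0387) in 8 of the 17 settings. Oas3, at a higher level per gene length, was at 61.4 ± 2.53 and 65.0 ± 4.23 CPM (SD, n = 3 each), a log2 fold change of 0.08. The OAS-like genes Oasl1 and Oasl2 had values of 0.30 and 0.32, and their groups overlapped.

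The MX proteins are dynamin-like GTPases that trap viral particles. Mx2, which the table lists as a polymorphic pseudogene, was at 3.29, 3.31 and 2.64 CPM in non-radiated and 4.44, 4.21 and 4.62 CPM in radiated libraries, log2 fold change 0.52, edgeR adjusted p 0.0555. Mx1 had a log2 fold change of 0.27 (adjusted p 0.331), and its groups overlapped. Mx1 and Mx2 share 94.8% identity over 920 bases.

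Rsad2 (viperin), an enzyme that makes a chain-terminating nucleotide, had the highest level per gene length of the 39 genes. It was at 439, 406 and 376 CPM in non-radiated and 439, 429 and 440 CPM in radiated libraries, and the groups overlapped. Its log2 fold change was 0.10 with a 95% interval of -0.05 to 0.25, which lies wholly below the interval of Ifit3, 0.71 to 1.33. Its chromosome 12 neighbour Cmpk2, a mitochondrial nucleotide kinase, had a value of -0.09. Samhd1, which degrades nucleotides, and Bst2 (tetherin), which holds budding virus at the membrane, had values of -0.05 and -0.04; all 3 turn above 0 when libraries are scaled by their totals, to 0.11, 0.14 and 0.16. Isg20, an exonuclease, had a value of 0.07. None of these 5 was called, and their intervals all included 0.

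The interferon-inducible GTPases respond strongly to type II interferon as a family, and some gather on the vacuoles of intracellular microbes. In this set their fold changes went in both directions. Of 5 members 1 rose, and the median log2 fold change was 0.34. Gbp2 (ENSMUSG00000028270, chr3:142620602-142638008), a guanylate-binding protein, was at 9.96, 9.14 and 8.92 CPM in non-radiated and 17.9, 17.7 and 12.4 CPM in radiated libraries. All 3 radiated values were above the non-radiated ones, and radiated library 3 was the lowest of them. The mean went from 9.34 ± 0.546 to 16.0 ± 3.09 CPM (SD, n = 3 each), a log2 fold change of 0.78 (SE 0.14) or 1.71-fold, at an adjusted p of 0.0106 by edgeR. The call was lost with the muscle share as a covariate, where the log2 fold change was 0.48 (adjusted p 0.144), and with the pair numbered 2 left out (0.0655), and it held in the other 15 of 17 settings.

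Gbp3, next to it, was at 13.7, 12.3 and 12.2 CPM in non-radiated and 17.5, 16.4 and 14.6 CPM in radiated libraries, without overlap. Its log2 fold change was 0.34, with an edgeR adjusted p of 0.0641 and of 0.0475 with the replicate block. The row named Gbp5 had a value of 0.42 (adjusted p 0.0966). That row carries the gene ID that GENCODE M21 gives to Gbp2b and spans a stretch that also covers Gbp3 and Gbp7. Which gene its counts belong to is unclear.

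Igtp (ENSMUSG00000078853, chr11:58199556-58207591), an immunity-related GTPase also known as Irgm3, had lower values in radiated femur. It was at 31.5, 29.5 and 25.8 CPM in non-radiated and 23.9, 22.7 and 18.8 CPM in radiated libraries, so the groups did not overlap. The mean was 28.9 ± 2.89 against 21.8 ± 2.63 CPM (SD, n = 3 each), a log2 fold change of -0.41 (SE 0.11) at an adjusted p of 0.0514 by edgeR. With the replicate block the adjusted p was 0.0113, and the pair differences were -0.40, -0.37 and -0.45. Igtp was called lower in 6 of the 17 settings. Its row overlaps Irgm2 on the same strand over 7974 bases, and Irgm2 had a log2 fold change of 0.04 and was not called. The related Irgm1, on the same chromosome, was at 38.9 ± 2.73 and 43.2 ± 2.18 CPM (SD, n = 3 each), a log2 fold change of 0.15 at an adjusted p of 0.265 by edgeR.

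The sensors recognise foreign or misplaced nucleic acid. Of 5 members 1 rose, and the median log2 fold change was 0.13. Zbp1 (ENSMUSG00000027514, chr2:173206612-173218923), which binds left-handed nucleic acid and can start necroptosis, was at 5.68, 5.43 and 5.83 CPM in non-radiated and 9.14, 7.85 and 7.22 CPM in radiated libraries. The non-radiated values lay close together, below all radiated ones. The mean went from 5.65 ± 0.201 to 8.07 ± 0.981 CPM (SD, n = 3 each), a log2 fold change of 0.51 (SE 0.12) or 1.43-fold, at an adjusted p of 0.0349 by edgeR. This call is a narrow one: it held in 9 of the 17 settings, and leaving out any library except radiated library 3 raised the adjusted p to between 0.0615 and 0.132. With the muscle share as a covariate it was 0.253, with library totals 0.109 and with the pair numbered 2 left out 0.162.

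None of the other 4 sensors was called. Ddx58 (RIG-I) was at 50.4 ± 1.9 and 56.7 ± 3.2 CPM (SD, n = 3 each), a log2 fold change of 0.17 at an adjusted p of 0.154 by edgeR, without overlap between the groups. Dhx58 (LGP2) had a value of 0.13 and Ifih1 (MDA5) of 0.03. Eif2ak2 (PKR), the kinase that stops translation on binding double-stranded RNA, was at 70.6 ± 6.01 and 71.0 ± 2.79 CPM (SD, n = 3 each), a log2 fold change of 0.01 with a 95% interval of -0.15 to 0.17.

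Among ISG15, a ubiquitin-like protein joined to others, and the enzymes of ubiquitin and ADP-ribose, 1 of 6 rose and the median log2 fold change was 0.15. Parp14 (ENSMUSG00000034422, chr16:35832874-35871544), an ADP-ribosyltransferase, was at 115, 111 and 106 CPM in non-radiated and 141, 126 and 132 CPM in radiated libraries, without overlap. The mean went from 111 ± 4.82 to 133 ± 7.24 CPM (SD, n = 3 each), a log2 fold change of 0.26 (SE 0.06) or 1.20-fold, at an adjusted p of 0.0270 by edgeR. The rise is small and the call held in 10 of 17 settings. It was lost without non-radiated library 2 (0.107), non-radiated library 3 (0.0700), radiated library 1 (0.113) or radiated library 3 (0.0554), with the muscle share as a covariate (0.121), with library totals (0.267) and with the pair numbered 2 left out (0.113).

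The genes of Parp14's chromosome 16 neighbours Parp9 and Dtx3l, whose proteins form a complex, overlap on opposite strands. Their log2 fold changes were 0.14 and 0.08. Isg15 itself was at 27.1, 26.2 and 22.2 CPM in non-radiated and 32.8, 30.6 and 24.0 CPM in radiated libraries. The groups overlapped because radiated library 3 lay within the non-radiated range, and the log2 fold change was 0.21 (edgeR adjusted p 0.371). Usp18, which removes ISG15 and dampens the type I receptor, had a value of 0.17. Trim25, a ubiquitin ligase that acts on RIG-I, had a value of 0.11.

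None of the 4 transcription factors was called, and their median log2 fold change was 0.17. Stat2, the type I signal's own STAT, had the smallest p of them. It was at 47.5, 52.1 and 48.6 CPM in non-radiated and 55.7, 55.8 and 55.2 CPM in radiated libraries, so the radiated values were nearly equal and above all non-radiated ones. The mean was 49.4 ± 2.4 against 55.6 ± 0.318 CPM (SD, n = 3 each), a log2 fold change of 0.17 (SE 0.06) at an adjusted p of 0.112 by edgeR. Irf1, which type II interferon induces directly, had a value of 0.17 (adjusted p 0.154) without overlap. Irf7, which drives type I interferon genes, was at 21.7, 25.7 and 24.2 CPM in non-radiated and 33.8, 29.4 and 24.5 CPM in radiated libraries, with overlap, log2 fold change 0.29 (edgeR adjusted p 0.189). Irf9, the DNA-binding partner of Stat2, had a value of 0.07.

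None of the 4 remaining members was called either, though their median log2 fold change, 0.44, was the highest of the role groups. Rtp4, a chaperone of receptors, had the smallest p. It was at 5.92, 5.15 and 5.03 CPM in non-radiated and 8.98, 8.52 and 5.80 CPM in radiated libraries, so radiated library 3 fell within the non-radiated range. The log2 fold change was 0.53 (SE 0.17) at an adjusted p of 0.102 by edgeR. Xaf1, which binds an inhibitor of apoptosis, had a value of 0.35 (adjusted p 0.110, and 0.0492 with the replicate block). Ifi44, the member with the lowest level per gene length, had a value of 0.54 with a 95% interval of -0.01 to 1.09. Ifi35 had a value of 0.10.

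**Figure D3:**
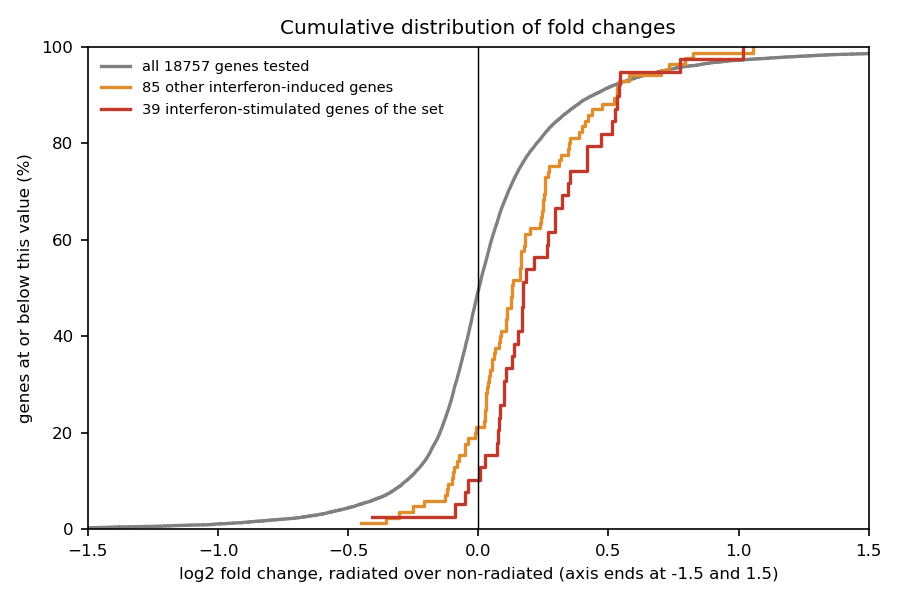
Distribution of the log2 fold changes of the 39 interferon-stimulated genes beside that of all 18757 genes tested. The members' median lies at 0.17 and that of all genes at 0.00.

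Levels per gene length were compared, in CPM per kilobase as the mean of the 6 libraries. Rsad2 was highest at 97.4, followed by Isg20 at 53.6, Isg15 at 35.9 and Samhd1 at 31.2, and Ifi44 was lowest at 0.451. The members with the larger fold changes were among the lower ones. Ifit3 was at 2.91 CPM per kilobase in non-radiated and 5.91 in radiated femur. The 19 members below the members' median level of 7.07 CPM per kilobase all had a fold change above 0, their median was 0.42 on the log2 scale, and 3 were called higher. Of the 20 at or above it, 16 were above 0, the median was 0.10 and 1 was called. Over all genes split at the same level, the medians were 0.05 and -0.03, and 5.31% and 3.5% were called higher. Spearman's rho between level and log2 fold change over the 39 genes was -0.77. It is a description across genes of the same 6 libraries, in which low counts also spread more.

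**Figure D4:**
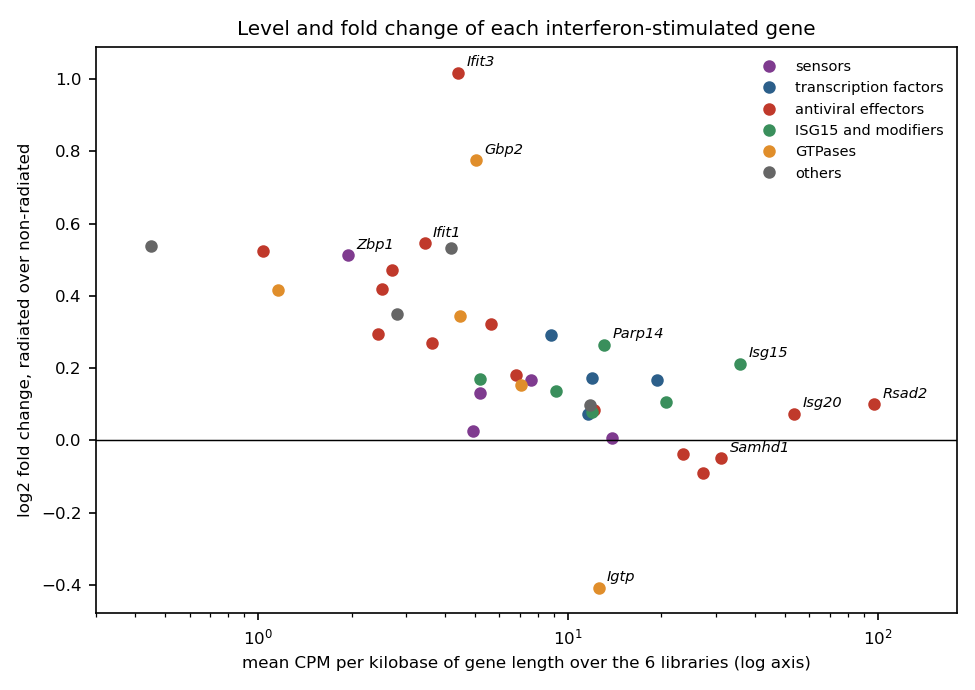
Mean level over the 6 libraries (CPM per kilobase of gene length, log axis) against log2 fold change, 1 point per interferon-stimulated gene, coloured by role. The points with the highest fold changes, Ifit3 and Gbp2, lie below 10 CPM per kilobase, and those above 20 lie between -0.09 and 0.21.

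Upstream of these genes, the interferons themselves were near the limit of detection. None of 21 ligand genes passed the filter, and 14 of them, Ifnb1 included, had 0 counts in all 6 libraries. A count of 0 allows up to 3 counts, or 0.0616 to 0.0881 CPM of the unscaled total of a library, and this covers counting error only. Ifng, the type II interferon of T and NK cells, had 5, 5 and 3 counts in non-radiated and 13, 21 and 4 counts in radiated libraries, and did not pass the filter. In the 5 settings that kept it, its log2 fold change was 0.74 to 1.52, and it was not called (edgeR adjusted p 0.135 to 0.575). No library had more than 4 counts of any of the other 20 genes. With no filter, 7 ligand genes were fitted and none was called, so a difference in ligand RNA was not detectable at this depth.

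Of 15 genes for receptors and JAK-STAT signalling, 1 rose (6.67%), 1 fell, and the median log2 fold change was 0.01. Over all genes 4.56% were called higher and 3.24% lower. Ifngr2, the signalling chain of the type II receptor, was at 48.0, 45.1 and 47.9 CPM in non-radiated and 55.8, 52.9 and 55.6 CPM in radiated libraries, log2 fold change 0.22, edgeR adjusted p 0.0488. This call held in 4 of the 17 settings, and it was lost with the replicate block (0.0682) and without any 1 of the 6 libraries (0.0704 to 0.216). Jak2, a kinase of that receptor and of blood growth factor receptors, was at 182, 182 and 174 CPM in non-radiated and 143, 146 and 139 CPM in radiated libraries, log2 fold change -0.33, edgeR adjusted p 0.00456. It was called in 15 settings, with library totals (-0.13, adjusted p 0.793) and the pair numbered 2 left out (0.0581) as the exceptions. Ifnar1, Ifnar2 and Ifngr1 had values of 0.05, 0.04 and 0.01. Of 20 genes in or around nucleic acid sensing upstream of interferon, 1 rose (5%), close to the share of all genes. It was Unc93b1, which carries Toll-like receptors to endosomes. It was at 109, 117 and 134 CPM in non-radiated and 160, 148 and 150 CPM in radiated libraries (log2 fold change 0.35, edgeR adjusted p 0.0267). Its call held in 11 settings and was lost without non-radiated library 1 (0.0804), non-radiated library 2 (0.113) or radiated library 1 (0.106). It was also lost with library totals (edgeR adjusted p 0.127), with the muscle share as a covariate (0.107) and with the pair numbered 2 left out (0.111). The median of those 20 was 0.04.

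A further 85 interferon-induced genes that are not members were tested. Of these 9 rose (10.6%) and 2 fell, beside 4.56% and 3.24% of all genes. Their median log2 fold change was 0.13, with 67 above 0 (78.8%). The 6 with the smallest p were Nlrc5, which switches on MHC class I genes (log2 fold change 0.35, edgeR adjusted p 0.00527), Gbp9 (0.44, 0.0220), Ifit3b, Pyhin1 (0.42, 0.0353), Oas1g and Ifi30 (0.26, 0.0390). The number that rose was 13 with the replicate block and 2 with the muscle share as a covariate, beside 5.51% and 2.32% of all genes. It was 1 without non-radiated library 2 or without radiated library 1, beside 2.23% and 2.27% of all genes. Without either of those libraries the share of the list was thus below that of all genes. The number was 3 without non-radiated library 3, 5 without non-radiated library 1, 6 without radiated library 2 and 10 without radiated library 3. Of all genes those fits called 4.08%, 2.8%, 3.57% and 4.85% higher. Among the 39 members the shares called higher and above 0 were 10.3% and 89.7%, and the difference between the lists was not tested.

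Markers of several cell types also differed between the groups. Of 14 macrophage markers 9 rose and 2 fell, and their median lay at 0.58, 0.42 and 0.33 on the log2 scale in radiated libraries 1, 2 and 3, against -0.01, 0.06 and -0.04 in non-radiated libraries 1, 2 and 3. Their summed level was 1255 to 1435 CPM in non-radiated and 1591 to 1825 CPM in radiated libraries, and none of the 14 was at 0. Of 19 T and NK cell markers 3 rose, and the median lay at 0.48, 0.37 and 0.23 in radiated libraries 1, 2 and 3, against -0.03, -0.04 and 0.10 in the non-radiated ones. Their summed level was 106 to 115 CPM in non-radiated and 119 to 136 CPM in radiated libraries. None of the T and NK cell markers was called without radiated library 1, 1 was without non-radiated library 1 or 2, and 0 with the muscle share as a covariate. Of the macrophage markers 5 to 10 rose when 1 library was left out, with 5 without radiated library 1. For both lists the medians of the radiated libraries had the same order as for the interferon-stimulated genes, with library 1 highest. The endothelial markers (0.17, 0.04 and -0.03) and the receptor and JAK-STAT genes (0.06, 0.02 and -0.04) had that order too. The part of these cells in the result was not tested.

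All 12 B cell markers rose, with a summed level of 587 to 653 CPM in non-radiated and 946 to 1181 CPM in radiated libraries, where library 3 was highest. Of 14 neutrophil markers none rose and 3 fell, with 15882 to 19959 CPM against 12519 to 14686 CPM. With the replicate block 7 of them fell. Of 11 markers of plasmacytoid dendritic cells, the main makers of type I interferon, 1 rose and 3 fell, and their median lay at -0.07, -0.06 and -0.39 in radiated libraries 1, 2 and 3. Siglech, a defining receptor of these cells, fell by 0.87 on the log2 scale (edgeR adjusted p 0.000477). The log2 fold changes of the 11 ran from -0.91 to 1.34, with 4 above 0. Their summed level was not lower in radiated femur, at 505 to 534 CPM in non-radiated and 526 to 569 CPM in radiated libraries. The list holds the member Bst2. It shares Irf8 with the other interferon-induced genes and Runx2 with the osteoblast and osteocyte markers, so the sum is not of these cells alone. Of 10 monocyte markers none rose and 1 fell. The part of these cells in the result was not tested either.

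**Figure D5:**
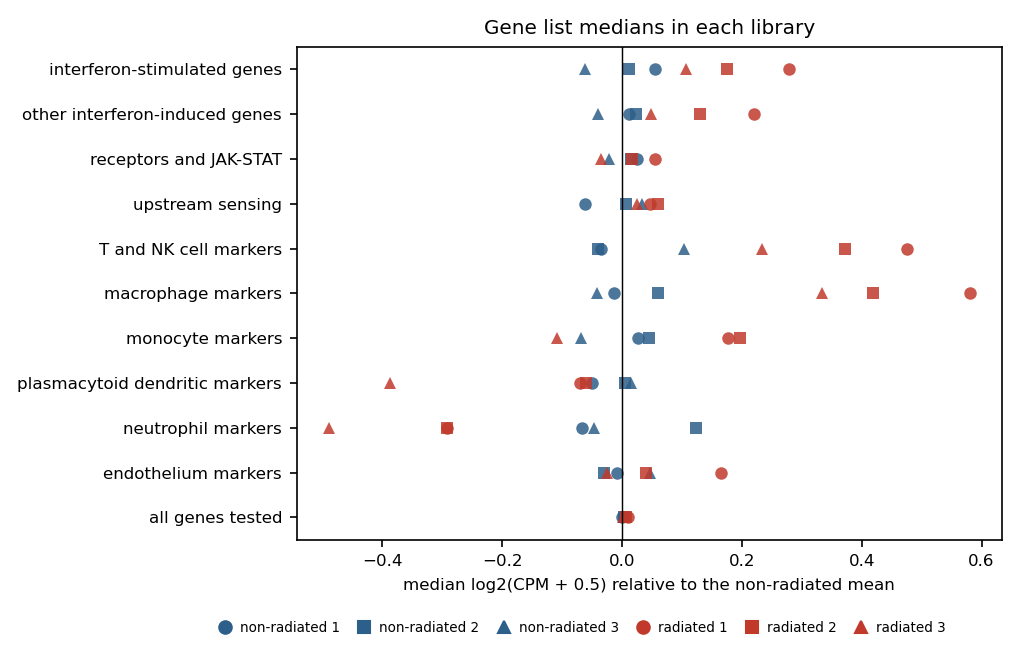
Median log2 difference from the non-radiated mean, per library, for the interferon-stimulated genes and for lists of pathway genes and cell type markers. The interferon-stimulated genes lie at 0.28, 0.18 and 0.11 in radiated libraries 1, 2 and 3, in the order in which the macrophage, T and NK cell and endothelial markers lie.

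The skeletal muscle markers moved with the radiated group too. Their summed level was 475 to 897 CPM in non-radiated libraries and 2035, 6329 and 632 CPM in radiated libraries 1, 2 and 3, and none of the 18 was called. With the replicate block 15 of the 18 rose, and without radiated library 3, 14 did. In the pair numbered 3, the muscle level was 475 CPM in the non-radiated and 632 CPM in the radiated library. Of the 18 markers, 17 were higher in that radiated library, with a median difference of 0.27 on the log2 scale. Of the 39 members, 30 were higher there than in non-radiated library 3, with a median difference of 0.17. Against the mean of the non-radiated libraries, the median member of radiated library 3 lay at 0.11. With the muscle share as a covariate the median of the members was 0.15, and 30 of the 39 were above 0, against 35 without it. The role group medians were then -0.002 for sensors, 0.15 for transcription factors and 0.11 for antiviral effectors. They were 0.06 for ISG15 and the modifiers, 0.23 for the GTPases and 0.22 for the remaining members. In that fit 1 member, Ifit3, was called higher and 1, Igtp, lower, beside 436 and 329 of all 18757 genes tested. The share of all genes called higher was 2.32%. Whether muscle has a part in the result was not tested.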

How the data were processed

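RNA-seq was made from 6 mouse femur libraries, 3 radiated and 3 non-radiated. The deposited table gives raw counts per gene and RPKM, per the file headers; the RPKM scale is not defined there and was not used. STAR 2.5.2b, Subread, featureCounts, bcl2fastq and the build mm10 are named in the submitters' processing notes, with no role given. Annotation and use of strand in counting are not given in the sources used here. Coordinates are those of the table, counted from 1.

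The count test was that of edgeR 4.0.16 (R 4.3.3): filterByExpr (minimum count 10, minimum total 15), TMM, glmQLFit and glmQLFTest with group as the only term, Benjamini-Hochberg over 18757 genes, called at an adjusted p under 0.05. An SE is the size of the log2 fold change over the root of its F statistic. The fit's biological coefficient of variation came to 12.9%. CPM and fold changes rest on TMM and are relative to the bulk of genes. Per-library log2 values use a pseudocount of 0.5 CPM. Per-length levels use the table's gene lengths. The fit was tested on simulated data.

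The members and lists were chosen with earlier results of these data known. Full values are given for members called and, in a role group with none called, for the member with the smallest p; in the other pathway lists up to 6 called genes are named. A gene of the receptor and JAK-STAT list is not reported here. Further genes, such as Igtp and Rsad2, were named after their values were seen. Of 39 members, 13 overlap another gene in the table, whose reads may not be separable, and 29 have the start and end of GENCODE M21. Near copies were found with blastn 2.17.0 (at least 90% identity over 200 bases). Of the marker lists, 1 of 10 erythroid genes rose and none fell, 4 of 12 osteoblast and osteocyte genes fell, 1 of 9 osteoclast genes and 9 of 10 adipocyte genes rose, 2 of 10 endothelial genes fell, and all 13 megakaryocyte genes fell.

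Both groups carry the numbers 1 to 3, from opposite legs, and whether a number marks 1 mouse is not in the labels. Deviations from the group means correlated across genes at 0.186, 0.349 and 0.204 for equal numbers and at -0.221 to 0.0203 for different ones. Deviations from a mean of 3 libraries depend on each other, so these correlations are not independent. The check cannot tell a shared mouse from a shared processing step. As the labels do not name a mouse, the number was left out of the main fit, and the replicate block was an alternative. The others were DESeq2 1.42.0 size factors, library totals with and without AY036118 and Gm26917, no filter, limma-voom (limma 3.58.1), a minimum mean of 1 CPM, the Wald test of DESeq2, the share of muscle marker counts as a covariate, leaving out each library and, chosen after seeing the data, leaving out both libraries numbered 2. This made 17 settings with the one reported.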

Additional observations from a re-analysis of the deposited data

How the results depend on the processing

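The counts of called members rest on few libraries per group, while the median and the direction varied less. The number of members called higher, 4 as reported, was 8 with the replicate block, 8 with no filter on low counts, 8 with DESeq2's Wald test, 2 with library totals, 1 with the muscle share covariate and 1 with the pair numbered 2 left out, and 2 to 8 when 1 library was left out. Over all genes, 4.56% were called higher in the reported fit, 5.51% with the block and 4.49% with no filter. The share was 5.78% (Wald), 4.55% (library totals), 2.32% (muscle share covariate) and 2.36% (pair numbered 2 left out). It was 2.23% to 4.85% when 1 library was left out. In either direction the fits called 1670 genes (block), 2073 of 28798 tested (no filter), 1938 (Wald) and 1000 (library totals). The number called lower, 0 as reported, was 1 with the replicate block, DESeq2 size factors, no filter, DESeq2's Wald test and the muscle share covariate, and 0 to 1 when 1 library was left out. The replicate block changed no call of a member other than the 5 gained with it. The median log2 fold change of 0.17 became 0.37 with library totals, under which the median of all genes was 0.19, and was 0.13 to 0.22 when 1 library was left out. The 1463 genes called over all genes became 765 with the muscle share covariate and 779 with the pair numbered 2 left out, and were 764 to 1376 when 1 library was left out. The sign of the log2 fold change was kept in all 16 alternatives for 31 members and changed in some for 8. Eif2ak2 was at -0.000624 with DESeq2 size factors, -0.000517 with DESeq2's Wald test, -0.00203 with the muscle share covariate and -0.0640 to 0.0623 when 1 library was left out. With library totals Cmpk2 was at 0.11, Samhd1 at 0.14 and Bst2 at 0.16. With the muscle share covariate Ifih1 was at -0.0295, Dhx58 at -0.0248, Isg20 at -0.0806 and Isg15 at -0.00386. When 1 library was left out, Ifih1 was at -0.0458 to 0.0752 and Isg20 at -0.0255 to 0.156. The cause of these shifts was not tested. Depth limited the ligand genes: 7 could be fitted with no filter and 1 at most in the other alternatives, and none was called.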
